A study of Mus musculus with 4 samples.

Results

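The genes of MHC class I peptide loading were followed in sorted mouse mammary tumor cells with and without targeted radiation. The 10 genes were taken by name from a count table of 54532 genes, and all 10 were found and passed the filter on low counts. They are the heavy chain genes H2-K1, H2-D1 and H2-T23, the light chain gene B2m, the transporter genes Tap1 and Tap2, the loading genes Tapbp and Pdia3, the trimming peptidase gene Erap1 and the transcriptional regulator gene Nlrc5.

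The irradiated group was 2 libraries from tumors given targeted radiation at day 30, and the unirradiated group was 2 libraries from tumors left without it. All tumors came from MFP injection of PyMT-Dll1+ cells on a C57BL/6 background, and all libraries were made from cells positive for Dll1 mCherry, a reporter for the Notch ligand gene Dll1. The MMTV promoter drives the polyoma middle T oncogene mainly in mammary epithelium. Antibodies to CD45, CD31 and TER119, markers of blood, endothelial and red cells, were used in the sort that enriched tumor cells. Not given in the sources used here were the radiation dose, the time between radiation and harvest, the ages of the mice and whether libraries of a group came from separate mice. P-values therefore measure only how far these libraries differ, and that spread could be technical.

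In the class I pathway, peptides cut by the proteasome are carried into the endoplasmic reticulum by the TAP transporter. There they are trimmed and loaded onto a heavy chain paired with beta-2 microglobulin, with the help of tapasin, calreticulin and the disulfide isomerase ERp57. Loaded complexes travel to the cell surface, where cytotoxic T cells inspect them. Interferons raise most of these genes in many cell types, and NLRC5 acts at class I promoters together with factors bound to conserved X and Y boxes. The X box holds a site with the TGACG letters of a cAMP response element, and the Y box reads ATTGG, the reverse complement of CCAAT.

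Promoter windows of 250 bases before to 50 after the start were taken from RefSeq (GRCm38.p6, the assembly of mm10) for the 8 members with an entry. Nlrc5 and Tap2 had none. H2-K1 had 2 starts, of which the first is used. Windows of both classical heavy chains, of B2m and of Tap1 are shown because they let the X and Y box letters be compared between genes whose values differed across the libraries. Capitals mark every match, on either strand, to TGACG, to CCAAT, to the NF-kB-type letters GGGA, any 4 bases, CC or to the interferon response letters GAAA, any 2 bases, GAAA.
H2-K1, chr17:34000298-34000597, minus strand: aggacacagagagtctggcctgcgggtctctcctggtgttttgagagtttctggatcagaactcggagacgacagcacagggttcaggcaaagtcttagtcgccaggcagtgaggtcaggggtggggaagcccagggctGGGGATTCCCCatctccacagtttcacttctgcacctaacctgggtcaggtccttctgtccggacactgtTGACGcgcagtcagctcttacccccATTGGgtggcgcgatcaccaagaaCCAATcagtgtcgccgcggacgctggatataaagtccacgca
H2-D1, chr17:35262844-35263143, plus strand: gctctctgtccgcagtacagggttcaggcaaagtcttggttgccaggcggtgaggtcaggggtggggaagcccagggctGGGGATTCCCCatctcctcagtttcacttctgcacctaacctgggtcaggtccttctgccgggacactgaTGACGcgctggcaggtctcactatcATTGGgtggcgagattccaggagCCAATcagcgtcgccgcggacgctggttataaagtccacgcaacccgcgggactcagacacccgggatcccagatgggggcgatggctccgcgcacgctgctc
B2m, chr2:122147437-122147736, plus strand: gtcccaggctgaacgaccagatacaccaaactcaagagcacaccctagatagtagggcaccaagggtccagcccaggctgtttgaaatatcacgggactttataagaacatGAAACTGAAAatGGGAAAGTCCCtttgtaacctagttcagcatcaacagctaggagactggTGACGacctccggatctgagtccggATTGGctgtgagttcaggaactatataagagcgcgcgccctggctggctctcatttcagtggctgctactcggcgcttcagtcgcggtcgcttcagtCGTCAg
Tap1, chr17:34187306-34187605, plus strand: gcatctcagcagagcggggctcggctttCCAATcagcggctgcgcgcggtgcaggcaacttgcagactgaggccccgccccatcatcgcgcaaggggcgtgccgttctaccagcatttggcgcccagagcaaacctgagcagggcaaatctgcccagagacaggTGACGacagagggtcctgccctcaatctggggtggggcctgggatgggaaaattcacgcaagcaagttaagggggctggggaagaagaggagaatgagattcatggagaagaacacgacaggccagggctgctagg

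The windows of H2-K1, H2-D1 and B2m shared the same spacing, with ATTGG starting 25 bases after the start of TGACG. Counted from the annotated start, TGACG began at -41 in H2-K1 (-55 from its other start), -101 in H2-D1 and -78 in B2m. TGACG followed after 20 further bases by ATTGG was found in 31 of 32851 promoter windows (0.0944%), either strand allowed. The 31 include the windows of these members, with both starts of H2-K1. No other spacing was searched, so this share is not an independent background. H2-M3, a nonclassical heavy chain gene, was another gene with it, as was the chaperone gene Calu. Tap1 had TGACG at -86 and CCAAT at -222, without that spacing. Pdia3 and Tap1 thus held TGACG without the pair, and H2-T23, Tapbp and Erap1 held no TGACG in this window.

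Letters of the NF-kB type were in the H2-K1, H2-D1 and B2m windows, each time as overlapping matches on both strands, and in 20.7% of all windows. The interferon response letters were in B2m, H2-T23 and Erap1 and in 3.44% of all windows. Letters of the GAS type, TTCNNNGAA with N any base, were in 0 of the 8 members' windows and in 8.3% of all. These searches find exact letters only, so a window without a match may hold a variant of them. TGACG alone was in 5 of the 8 members' windows and in 20.8% of all, and CCAAT in 7 of 8 and in 37.4% of all. These matches are letters in a window and were not tested as binding sites.

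The libraries held 19931303 and 18903631 counts in irradiated 1 and irradiated 2, and 20817997 and 16811888 counts in unirradiated 1 and unirradiated 2. The biological coefficient of variation over genes was 39.5% in the irradiated pair and 5.93% in the unirradiated pair. Markers of other cells were higher in the irradiated libraries and highest in irradiated 2. Summed dendritic cell and class II markers were at 146 and 1852 CPM (read counts divided by the TMM-scaled library total) with radiation, against 49.6 and 39.3 CPM without. Macrophage markers summed to 637 and 1254 CPM with radiation against 594 and 541 CPM without, T and NK cell markers to 19.9 and 193 CPM with radiation against 7.12 and 6.19 CPM without, and endothelial markers to 45.5 and 739 CPM with radiation against 27.9 and 24.004 CPM without. Fibroblast and pericyte markers summed to 955 and 6449 CPM with radiation against 769 and 787 CPM without, and B cell markers to 27.9 and 126 CPM with radiation against 9.67 and 7.55 CPM without. The irradiated pair lay wholly above the unirradiated pair for 12 of 14 tested macrophage markers, 6 of 7 of the dendritic and class II markers, 7 of 8 of the T and NK cell markers, 6 of 7 of the B cell markers, 8 of 11 of the endothelial markers and 8 of 15 of the fibroblast and pericyte markers. Over all tested genes the irradiated pair lay wholly above in 20.3% and wholly below in 20.0%. Only 7 of 12 listed dendritic and class II markers and 8 of 15 listed T and NK cell markers were tested. A marker near 0 without radiation could pass the filter on low counts only through the irradiated libraries. For such markers, lying above was fixed by the filter. Epithelial markers summed to 12035 and 9838 CPM with radiation against 11666 and 11196 CPM without, and all 10 were detected in every library. Of these 10, the irradiated pair lay wholly above for 2, wholly below for 4 and overlapped the unirradiated pair for 4. Epcam, an epithelial adhesion gene among the 4 below, was at 1291 and 1089 CPM with radiation and at 1447 and 1403 CPM without.

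**Figure D1:**
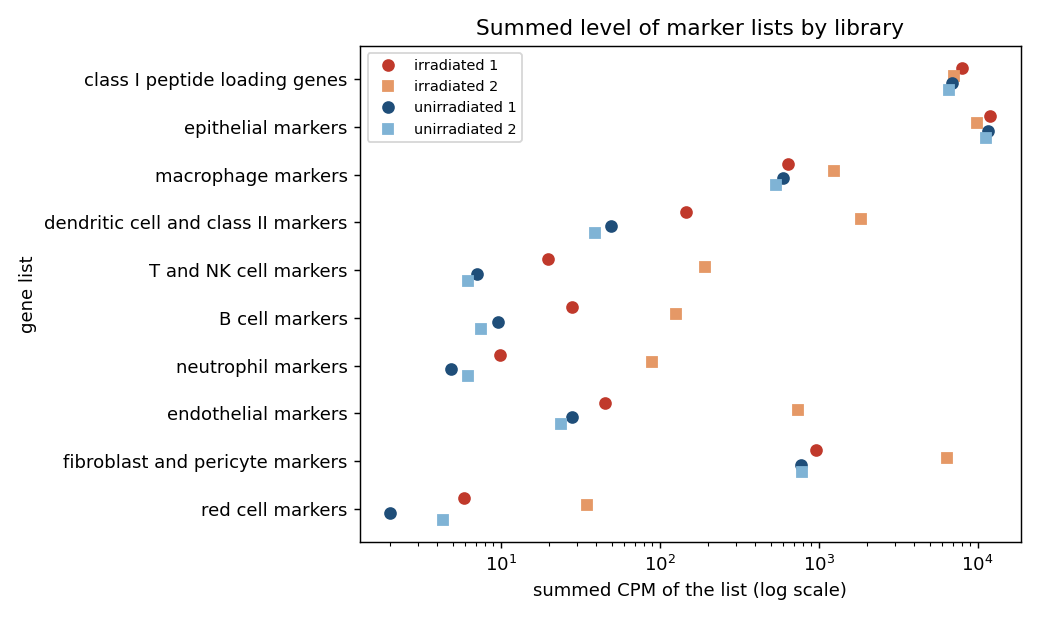
Summed CPM of each marker list and of the class I genes in each library, on a log scale, with circles for replicate 1 and squares for replicate 2 of each group. Irradiated 2 lies far to the right in the lists of other cells (1852 CPM for dendritic cell and class II markers), while the class I sums lie between 6593 and 7929 CPM.

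The class I genes also belong to blood, endothelial and stromal cells, so each result below is read with these marker values. Ptprc, the CD45 gene, was at 9.63 and 77.2 CPM with radiation, against 2.41 and 1.18 CPM without. Csf1r, a macrophage receptor gene, was at 6.91 and 68.5 CPM with radiation against 1.54 and 0.885 CPM without. Cd3e, a signaling chain gene of the T cell receptor complex, was at 0.252 and 8.96 CPM with radiation against 0.337 and 0.0590 CPM without. Among T and NK cell markers Cd3d, Cd8b1, Gzma and Prf1 were at 0 in irradiated 1, and in irradiated 2 no gene of the marker lists of other cells was at 0. In bulk RNA, fewer cells of a type and less RNA per cell cannot be told apart.

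Per deposited gene length, which is not the length of a single transcript, B2m and both classical heavy chains stood above the other 7 members in every library. CPM divided by the deposited gene length in kilobases (RPKM) averaged 1176 for B2m, 1004 for H2-K1 and 735 for H2-D1 over the 4 libraries. These genes ranked 32, 36 and 56 by this level among 15993 tested genes. Pdia3 averaged 191 RPKM and H2-T23, which encodes the nonclassical chain Qa-1, averaged 157 RPKM. Tapbp, the tapasin gene, followed at 67.0 RPKM, Tap2 at 27.3 RPKM and Tap1 at 23.2 RPKM. Nlrc5 averaged 6.86 RPKM and Erap1 5.66 RPKM.

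Neighbours in that order were not all separated. The ranges over libraries overlapped between B2m and H2-K1, between Pdia3 and H2-T23, between Tap2 and Tap1 and between Nlrc5 and Erap1. H2-K1 was the top gene in irradiated 1, at 1217 RPKM against 1155 RPKM for B2m there, and B2m was the top gene in the other 3 libraries. Nlrc5 lay above Erap1 in both irradiated libraries, at 10.6 and 7.16 RPKM against 5.54 and 5.78 RPKM for Erap1. It lay below Erap1 in both unirradiated libraries, at 4.33 and 5.30 RPKM against 5.53 and 5.78 RPKM.

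**Figure D2:**
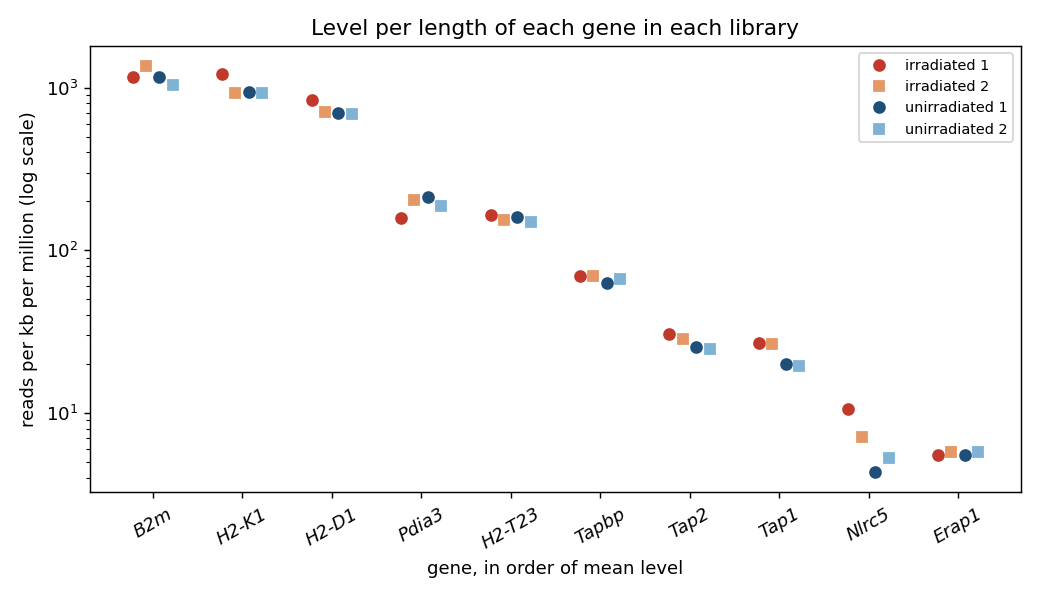
Level of each gene in each library in RPKM on a log scale, ordered by mean level, with circles for replicate 1 and squares for replicate 2. B2m, H2-K1 and H2-D1 have the highest means (1176, 1004 and 735 RPKM), and Nlrc5 and Erap1 exchange places between irradiated and unirradiated libraries.

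The comparison of irradiated with unirradiated libraries asks how class I loading transcripts differed in Dll1 mCherry-positive cells of irradiated tumors. The largest fold changes were those of Nlrc5, Tap1 and Tap2, at 1.85, 1.37 and 1.18 times the unirradiated level in the fit, while Erap1 lay at 1.00 times and Pdia3 at 0.906 times. In 5 of 10 members the irradiated pair lay wholly above the unirradiated pair, namely Nlrc5, Tap1, Tap2, Tapbp and H2-D1, against 20.3% of all tested genes. No member had both irradiated libraries below both unirradiated ones, against 20.0% of all tested genes. None of the 10 passed the edgeR quasi-likelihood test with Benjamini-Hochberg adjustment over all genes at 0.05, in which 0.00% of genes were called higher and 0.00% lower. At an unadjusted p under 0.05 the members higher in irradiated libraries were Tap1 and Nlrc5, 2 of 10, against 6.82% of all tested genes, and 0 were lower, against 2.44%.

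The same 2 genes, Tap1 and Nlrc5, were the members called higher by DESeq2, in which 2.96% of genes were higher and 0.380% lower, while 0 members passed limma-voom. In edgeR without the filter on low counts Nlrc5 was called, beside 4.86% of genes higher and 0.381% lower. Leaving out irradiated 1, B2m, Tap1 and Nlrc5 were called higher and 0 members lower, beside 15.9% and 7.95% of all genes. Leaving out irradiated 2, H2-K1, H2-D1, Tap1, Tap2 and Nlrc5 were called higher and Pdia3 lower, beside 11.9% and 13.9% of all genes. Those fits take the spread from the unirradiated pair alone. The fold change was above 1 in 9 of 10 members, against 50.5% of all tested genes. Among the 9 was Erap1, at a log2 fold change of only 0.00077. Without irradiated 1, H2-K1 and H2-T23 turned to -0.019 each and Pdia3 turned to 0.016. The median log2 fold change of the members was 0.18, beside 0.0040 over all tested genes. In irradiated 1 the median log2 difference from the unirradiated mean was 0.19 and in irradiated 2 it was 0.068, beside -0.0025 and 0.0041 over all tested genes. Read counts per member and library ran from 713 to 62902, so counting error was between 0.399% and 3.75% of a value.

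**Figure D3:**
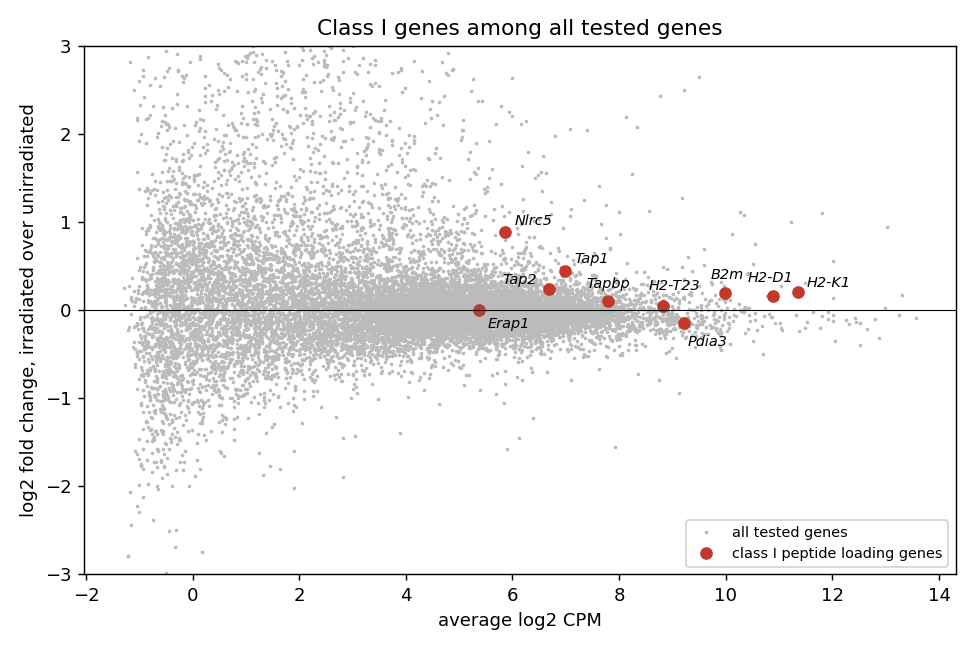
Log2 fold change, irradiated over unirradiated, against average log2 CPM for all tested genes in grey and for the 10 class I genes in red. Nlrc5 (0.89) and Tap1 (0.45) lie highest of the 10, the others lie between -0.14 and 0.24, and 372 tested genes fall outside the plotted range of -3 to 3.

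Nlrc5, the regulator of class I promoters, was at 90.4 and 60.8 CPM with radiation, against 36.8 and 45.0 CPM without. The groups did not overlap, and irradiated 1 was well above irradiated 2. The means were 75.6 ± 21.0 CPM with radiation and 40.9 ± 5.79 CPM without (SD, n = 2 each). The log2 fold change was 0.89 (SE 0.23), with a p of 0.0113 and an adjusted p of 0.489 by edgeR and an adjusted p of 0.0329 by DESeq2. Without irradiated 1 it was 0.56, and without irradiated 2 it was 1.14. Irradiated 1, with the higher Nlrc5, had the lower marker sums of other cells of the irradiated pair, and the part of other cells in the Nlrc5 values was not tested. Nlrc5 (ENSMUSG00000074151) lies on chromosome 8 from 94434356 to 94527272 in mm10.

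Tap1 and Tap2 encode the partner chains of the peptide transporter and are neighbours on chromosome 17. Tap1 was at 148 and 145 CPM in the irradiated pair and at 109 and 106 CPM in the unirradiated pair, so each group was tight and the groups stood apart. The means were 147 ± 2.41 CPM with radiation and 108 ± 2.24 CPM without (SD, n = 2 each). Its log2 fold change was 0.45 (SE 0.10), with a p of 0.0063 and an adjusted p of 0.489 by edgeR and an adjusted p of 0.0311 by DESeq2. It was close to this without either irradiated library, at 0.42 without irradiated 1 and 0.45 without irradiated 2. The part of other cells in the Tap1 values was not tested.

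Tap2 was at 115 and 109 CPM with radiation, against 96.1 and 93.5 CPM without. The groups again did not overlap. The log2 fold change of Tap2 was 0.24 (SE 0.10, edgeR adjusted p = 0.556). The Tap1 to Tap2 ratio per length, which needs no scaling between libraries, was 0.888 and 0.923 in the irradiated libraries, against 0.783 and 0.782 in the unirradiated ones. Tap1 thus lay higher relative to its partner in both irradiated libraries, by 0.21 on the log2 scale. With 2 libraries a side, exact permutation gives no p smaller than 1 in 3, so single ratios were not tested.

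Tap1 (ENSMUSG00000037321) spans 34187553 to 34197225 and Tap2 (ENSMUSG00000024339) spans 34203527 to 34216321. Tap1 exons share 3.87% of their bases with Psmb9 on the opposite strand. Tap2 exons share 18.5% with 2 antisense genes, Gm15821 and Gm20496, which had between 5 and 27 counts per library. The library kit kept no strand, so reads in such shared bases cannot be assigned to a gene.

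**Figure D4:**
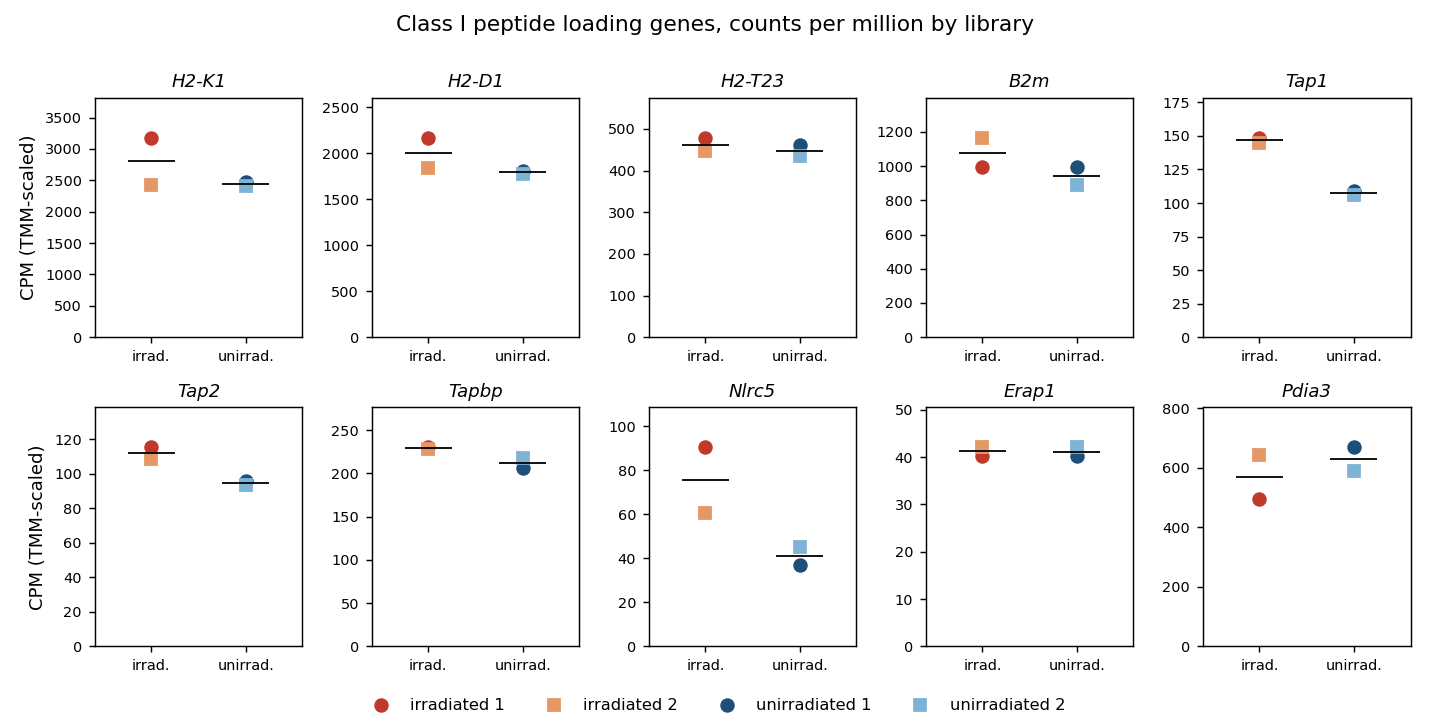
TMM-scaled CPM of each class I gene by library, with the irradiated group left of the unirradiated group, circles for replicate 1, squares for replicate 2 and a bar at the mean. The groups stand apart for Tap1 (148 and 145 CPM irradiated, 109 and 106 CPM unirradiated), Tap2 and Nlrc5, and Erap1 lies at the same level in both.

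Tapasin and ERp57 hold empty class I molecules beside the transporter. Tapbp was at 230 and 228 CPM with radiation, against 207 and 218 CPM without. The irradiated values lay above, by a log2 fold change of 0.11 (SE 0.11, edgeR adjusted p = 0.840). Per length, Tapbp over Tap1 was 2.58 and 2.61 in the irradiated libraries, against 3.15 and 3.42 in the unirradiated ones, so tapasin transcripts were fewer per Tap1 transcript in both irradiated libraries. Tapbp exons share 29.0% of their bases with other genes, most of it with Gm19412, which had 0 counts in every library. Zbtb22, on the same strand, shares 4.11%. It had 773 and 720 counts in the irradiated libraries, against 768 and 627 in the unirradiated ones. Tapbp (ENSMUSG00000024308) lies on chromosome 17 from 33915899 to 33929288.

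Pdia3, the ERp57 gene, was at 496 and 642 CPM with radiation, against 668 and 588 CPM without. Irradiated 1 was the lowest of the libraries, and irradiated 2 lay between the unirradiated ones. The log2 fold change was -0.14 (SE 0.18, edgeR adjusted p = 0.874), 0.016 without irradiated 1 and -0.36 without irradiated 2. Pdia3 over B2m per length was 0.137 and 0.151 in the irradiated libraries, against 0.184 and 0.181 in the unirradiated ones. Irradiated 1 held the lowest Pdia3 and irradiated 2 the highest B2m of the 4 libraries. Pdia3 (ENSMUSG00000027248) lies on chromosome 2 from 121413775 to 121438687.

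The classical heavy chains present peptides to CD8 T cells. H2-K1 was at 3173 and 2427 CPM with radiation, against 2468 and 2401 CPM without. Only irradiated 1 stood out, and irradiated 2 lay within the unirradiated range. Its log2 fold change was 0.20 (SE 0.20, edgeR adjusted p = 0.840), 0.37 without irradiated 2 and -0.019 without irradiated 1.

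H2-D1 was at 2164 and 1836 CPM with radiation, against 1809.7 and 1773 CPM without. The groups did not overlap, but irradiated 2 lay 0.036 above the unirradiated mean on the log2 scale and irradiated 1 lay 0.27 above it. The log2 fold change of H2-D1 was 0.16 (SE 0.17, edgeR adjusted p = 0.849). H2-K1 over H2-D1 per length was 1.45 and 1.31 in the irradiated libraries, against 1.35 and 1.34 in the unirradiated ones. Both classical heavy chains thus had their highest value in irradiated 1, as did H2-T23, Tap1, Tap2, Tapbp and Nlrc5.

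H2-T23 was at 478 and 446 CPM with radiation, against 461 and 434 CPM without, and the groups overlapped. Its log2 fold change was 0.047 (SE 0.13, edgeR adjusted p = 0.950). H2-T23 (ENSMUSG00000067212) lies on chromosome 17 from 36029773 to 36032855. Heavy chain genes are near-identical in part: of the 50-base words in GENCODE M21 transcripts, 9.63% of those of H2-K1, 12.8% of those of H2-D1 and 13.6% of those of H2-T23 also occurred in another gene, such as H2-Q10, H2-Q7 or H2-Q1. How the authors counted reads from shared sequence is not stated in the labels or files, so the heavy chain values are uncertain to that extent. B2m, Nlrc5, Erap1 and Pdia3 shared 0 such words with any other gene.

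The light chain B2m, which every classical heavy chain needs to reach the surface, was at 993 and 1164 CPM with radiation, against 996 and 891 CPM without. Here irradiated 2 was the highest library and irradiated 1 lay within the unirradiated range. The log2 fold change of B2m was 0.19 (SE 0.16, edgeR adjusted p = 0.801), 0.29 without irradiated 1 and 0.060 without irradiated 2. B2m over the sum of H2-K1 and H2-D1 per length was 0.562 and 0.824 in the irradiated libraries, against 0.703 and 0.644 in the unirradiated ones. The irradiated libraries held the lowest and the highest value of this ratio. B2m was highest in the library with the most Ptprc (77.2 CPM) and Cd74 (773 CPM), and the part of other cells in its value was not tested. B2m (ENSMUSG00000060802) lies on chromosome 2 from 122147686 to 122153083, H2-K1 (ENSMUSG00000061232) on chromosome 17 from 33996017 to 34000333 and H2-D1 (ENSMUSG00000073411) on chromosome 17 from 35262730 to 35267499.

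Erap1, which trims peptides inside the endoplasmic reticulum, was at 40.3 and 42.1 CPM with radiation, against 40.3 and 42.1 CPM without. Its log2 fold change was 0.00077 (SE 0.11, edgeR adjusted p = 0.999), and its sign turned under upper-quartile scaling and under scaling by library size alone. Erap1 exons share 11.5% of their bases with Cast on the opposite strand, which had 2511 and 2333 counts in the irradiated libraries, against 2404 and 2030 in the unirradiated ones, more than the 799, 789, 837 and 713 counts of Erap1 itself. Erap1 (ENSMUSG00000021583) lies on chromosome 13 from 74639568 to 74693201.

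**Figure D5:**
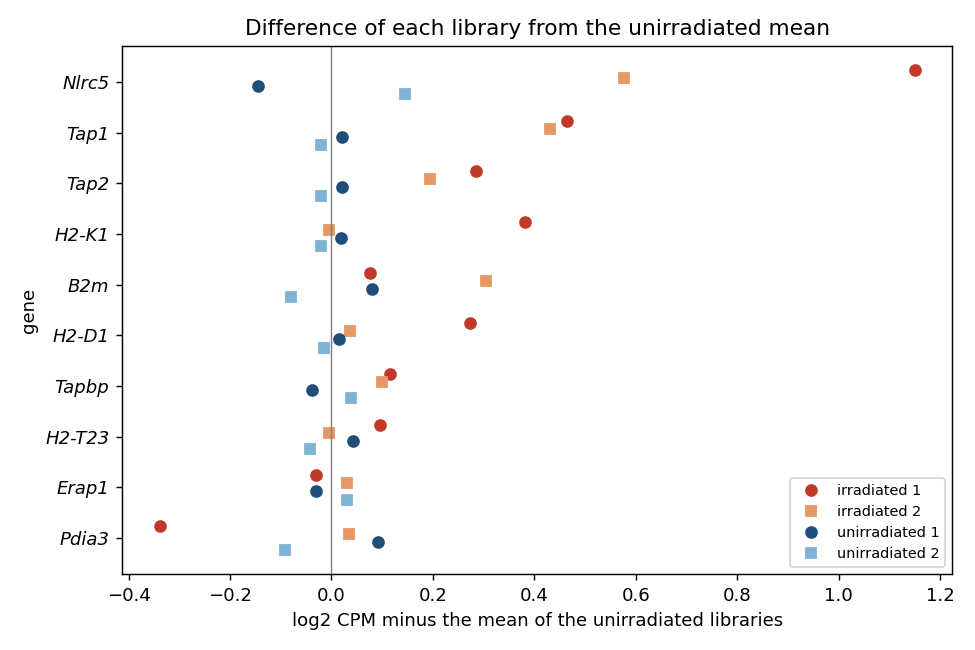
Log2 CPM of each library minus the mean of the unirradiated libraries, per gene, ordered by fold change, with circles for replicate 1 and squares for replicate 2. Irradiated 1 and irradiated 2 lie together for Tap1 (0.47 and 0.43) and Tapbp, and apart for Nlrc5, H2-K1 (0.38 and -0.0045), H2-D1, B2m and Pdia3.

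The members therefore did not vary as 1 block across libraries. Irradiated 1 held the highest value of 7 members, irradiated 2 that of B2m and an unirradiated library that of Pdia3. Of the 7, Tap1 and Tapbp were nearly as high in irradiated 2. Erap1 was at 42.1 CPM in both irradiated 2 and unirradiated 2, a tie within counting error. The absolute log2 gap within the irradiated pair had a median of 0.16 over the members, against 0.070 within the unirradiated pair, and was the wider gap in 7 of 10 members. Over all tested genes the median gaps were 0.33 and 0.13, and the irradiated gap was the wider in 75.6% of genes. For likeness to Tap1, genes of the lists used here, genes of low average level and genes with predicted symbols (Gm or Rik) were left out. Among the rest, the genes closest to Tap1 across the 4 libraries were the clone-named gene CAAA01147332.1, then Sssca1, Ttl, Armc9 and Kif22. Their distances in centred log2 CPM were 0.038 to 0.058, picked as the smallest among 9946 genes compared. The distance between Tap1 and Tap2 was 0.21, and that the picked genes lay closer follows from the picking. Genes of the lists, such as Psmb8 and Psmb9, were not compared.

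Other heavy chains of the family lay on both sides. Of 15 tested class I and class I-like heavy chain genes besides the members, 6 had both irradiated libraries above and 3 below. Over all tested genes 20.3% lay above and 20.0% below. The median log2 fold change of this list was 0.44. In edgeR 0 passed, and at an unadjusted p under 0.05 4 were higher and 1 lower, against 6.82% and 2.44% of all tested genes. H2-Q7, which encodes the nonclassical antigen Qa-2, was at 314 and 254 CPM with radiation, against 163 and 185 CPM without (log2 fold change 0.71, SE 0.16, edgeR adjusted p = 0.489). It was the gene of this list that DESeq2 called, with an adjusted p of 0.00655, beside 2.96% of all genes called higher. H2-T10 was at 24.9 and 20.8 CPM with radiation against 14.9 and 15.1 CPM without. H2-M2 was near silent, with 17 and 31 counts with radiation against 3 and 1 counts without. It passed the filter on low counts only through the irradiated libraries, so its lying above was fixed by the filter. H2-M2 is nonetheless among the 6 above and the 4 higher, and it enters the median of this list. Sequence that H2-T10 and H2-M2 share with other genes was not measured, and H2-Q7 shares some with H2-K1 and H2-D1. Cd1d1, which presents lipids to NKT cells, was lower in value, at 15.2 and 19.7 CPM with radiation against 27.5 and 26.5 CPM without.

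Among 24 tested genes of peptide supply and loading besides the members, 4 lay above and 7 below. Over all tested genes 20.3% lay above and 20.0% below. The median log2 fold change of the list was -0.070, and 0 passed edgeR or DESeq2. At an unadjusted edgeR p under 0.05 2 were higher and 0 lower, against 6.82% and 2.44% of all tested genes. The immunoproteasome subunit genes differed among themselves. Psmb8 was at 109 CPM in either irradiated library and 81.7 and 81.2 CPM without radiation, and Psmb9, which shares its promoter region with Tap1, at 39.5 and 40.1 CPM with radiation against 29.7 and 27.1 CPM without. Their log2 fold changes of 0.42 (SE 0.095) and 0.49 (SE 0.12) (Psmb8 and then Psmb9) were near that of Tap1, and their edgeR adjusted p was 0.489 each. Psmb10, the other subunit of that kind, was at 40.6 and 55.7 CPM with radiation against 46.1 and 40.2 CPM without, so its groups overlapped. Thop1, a cytosolic peptidase gene that destroys antigenic peptides, was at 57.5 and 66.0 CPM with radiation against 77.4 and 73.4 CPM without. The lectin chaperones of the loading complex lay slightly lower in value, Calr at 845 and 920 CPM with radiation against 987 and 933 CPM without and Canx at 248 and 310 CPM with radiation against 321 and 312 CPM without. Tapbpl, the gene of the tapasin-like editor TAPBPR, was at 21.0 and 29.8 CPM with radiation against 24.2 and 26.1 CPM without.

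Of 20 folding chaperone genes of the endoplasmic reticulum, 0 lay above and 4 below, against 20.3% above and 20.0% below over all tested genes. The median log2 fold change of the chaperones was -0.041, and 0 passed edgeR or DESeq2. At an unadjusted edgeR p under 0.05 0 were higher and 0 lower, against 6.82% and 2.44% of all tested genes. The ones with the smallest p were Sel1l, of protein quality control, at 147 and 127 CPM with radiation against 155 and 166 CPM without, Hspa5, the BiP gene, at 1585 and 1477 CPM with radiation against 1752 and 1709 CPM without, and Pdia4 at 139 and 182 CPM with radiation against 181 and 183 CPM without. Pdia4, a relative of Pdia3, was likewise lowest in irradiated 1. The chaperone median was -0.20 in irradiated 1 and 0.093 in irradiated 2.

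Among 33 tested genes of class I transcription and interferon signaling, 10 lay above and 5 below. Over all tested genes 20.3% lay above and 20.0% below. The median log2 fold change of the list was 0.11. In edgeR 0 passed, and at an unadjusted p under 0.05 5 were higher and 0 lower, against 6.82% and 2.44% of all tested genes. DESeq2 called 2, beside 2.96% of all genes higher and 0.380% lower. Socs1, an inhibitor of cytokine signaling induced by interferon, was at 14.7 and 17.3 CPM with radiation against 7.80 and 7.08 CPM without, and was called by DESeq2 with an adjusted p of 0.0138. Irf1, which also acts on class I promoters, was lower in value, at 671 and 574 CPM with radiation against 697 and 689 CPM without. Irf8, a factor of myeloid and B cells, was at 4.49 and 37.3 CPM with radiation against 1.25 and 1.71 CPM without (DESeq2 adjusted p = 0.000919) and so ran with the markers of those cells, whose part in it was not tested. The interferon gamma gene Ifng itself had 6 and 99 counts in the irradiated libraries, against 2 in each unirradiated one.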

How the data were processed

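Poly(A) RNA of 4 libraries was measured. The authors deposited raw read counts per gene, with names, positions and gene lengths. The tools named are STAR 2.5, HTSeq 0.6.1 and DESeq2, with build mm10, per the submitters' processing notes. Not given in the sources used here were the annotation release and counting options. Per the labels' protocols the library kit was non-directional.

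Groups came from the labels. The members, lists and naming rule were chosen with earlier results of these data known. Named genes were the members, 12 preset genes and, per pathway list, the 3 with the smallest p, except 1 gene that is not reported here; Cast, Cd1d1, Psmb10, Cd74, Calu, H2-M3, Ifng, the markers at 0 and genes overlapping or sharing sequence with members were added after their values were seen. R 4.3.3 with edgeR 4.0.16 was used. The 15993 genes that passed filterByExpr (minimum count 10, total 15) were scaled by TMM and given the two-sided quasi-likelihood test, with Benjamini-Hochberg adjustment over all of them. Log2 CPM used a prior count of 2. RPKM divides CPM by the deposited length in kilobases. DESeq2 1.42.0 and limma 3.58.1 were alternatives, as were other scalings and filters, left-out libraries and, added after seeing the data, a robust quasi-likelihood fit and epithelial marker scaling. The edgeR fit was tested on simulated counts with the same spread in both groups. That test does not cover the unequal spread of the irradiated and unirradiated pairs. Word sharing and exon overlap used GENCODE M21, in which H2-K1 and Tapbp have slightly different ends from those deposited.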

Additional observations from a re-analysis of the deposited data

How the results depend on the processing

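Over all genes edgeR called 0 higher and 0 lower, but without the filter 1338 and 105, without irradiated 1 2713 and 1354, without irradiated 2 2022 and 2355, and DESeq2 called 437 and 56. Members called higher numbered 0 with edgeR, 1 (Nlrc5, adjusted p = 9.02e-07) without the filter and 2 with DESeq2, and 0 to 5 with a library left out. They were 3 without irradiated 1 (B2m, Tap1 and Nlrc5; 15.9% of all genes) and 5 without irradiated 2 (H2-K1, H2-D1, Tap1, Tap2 and Nlrc5; 11.9%). Members called lower numbered 0 to 1, the 1 being Pdia3 without irradiated 2 (13.9% of all genes). Those fits assume that the lone irradiated library varies like the unirradiated pair, so their calls do not carry the spread of the irradiated pair. Without either unirradiated library 0 members were called.

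With a library left out, the median log2 fold change of the members ran from 0.054 (without irradiated 1) to 0.19. The members above ran from 6 to 8 and those below from 0 to 1. With fewer libraries to separate, these counts could only stay or rise, and the share over all genes was not computed. The log2 fold change ran from 0.56 to 1.14 for Nlrc5, 0.41 to 0.46 for Tap1, 0.18 to 0.27 for Tap2, 0.061 to 0.13 for Tapbp, 0.060 to 0.29 for B2m, -0.019 to 0.37 for H2-K1, 0.021 to 0.26 for H2-D1, -0.019 to 0.082 for H2-T23, -0.36 to 0.016 for Pdia3 and -0.043 to 0.019 for Erap1. The log2 difference of the ratio of B2m to both classical heavy chains ran from -0.26 to 0.29, that of H2-K1 to H2-D1 from -0.040 to 0.11, that of Tap1 to Tap2 from 0.18 to 0.24, that of Tapbp to Tap1 from -0.40 to -0.28 and that of Pdia3 to B2m from -0.41 to -0.27. The causes were not tested.

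Erap1 turned to -0.010 with upper-quartile scaling, -0.013 with library size alone and -0.012 without the filter. By CPM with no length correction B2m ranked 3 of the 10 instead of 1. Under DESeq2 size factors, epithelial marker scaling (added after seeing the data) or the stricter filter 6 members lay above. With the replicate number as a block, 2 genes were called higher and 0 of them were members, whose median was 0.17. Deviations of same-numbered libraries had a correlation of -0.099 over genes. That value rests on a single pair of libraries per group, so it cannot decide whether the numbers pair the libraries. The labels do not say. Depth limited these genes little, since counting error was at most 3.75% of a member's value.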
